A study of Saccharomyces cerevisiae with 4 samples.

Results

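Genes for protein entry into the endoplasmic reticulum (ER) and for protein glycosylation were examined among the RNAs bound by Mex67 in Saccharomyces cerevisiae. The set was a fixed list of 60 genes, chosen by gene symbol and not by measured values, and it covered the ER translocons, the signal recognition particle, signal peptidase, oligosaccharyltransferase, the enzymes that build and trim sugar chains, and disulfide formation. Of the 60 genes, 59 had a probe on the array, 21 had a ratio on at least 1 array and 6 had a ratio on at least 3 arrays.

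Proteins with a signal sequence are brought to the ER membrane by the signal recognition particle and pass through the Sec61 channel, or enter after their synthesis with help of the Sec63 complex. Signal peptidase then removes the signal sequence, and oligosaccharyltransferase moves a preassembled sugar chain from its lipid carrier, dolichol, to asparagine residues. Other enzymes attach mannose to serine and threonine in the ER, and Golgi mannosyltransferases extend both kinds of chain on secreted and cell wall proteins. The mRNAs for all these proteins are transcribed in the nucleus and need an export receptor, of which Mex67 is the main one in budding yeast.

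The 4 arrays form 1 group. On each, RNA that came down with tagged Mex67 (zzMex67) competed with total RNA for the same spots, 1 RNA per colour channel. Arrays 1 and 2, numbered here in accession order, carried the precipitated RNA in channel 2, and arrays 3 and 4 carried it in channel 1. A control precipitation from untagged cells was not analysed here. The labels used here name no strain, growth condition or number of cultures, so the spread behind each p-value is that between arrays and may be technical. The array titles share 1 numeric code for arrays 1 and 3 and another for arrays 2 and 4, each with opposite channel assignments. What the code stands for is not stated, and the main fit took the arrays as independent.

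Values below are log2 ratios relative to the array median, which is the median over the named genes with a ratio on at least 3 arrays. The array titles name the zzMex67 precipitation before total RNA, and no label used here states the direction of the ratio. Above the median is therefore read as likely more precipitated RNA. Arrays with opposite channel assignments correlated above 0 (for arrays 2 and 3, r = 0.756 across 646 features, which are genes or probes without a gene name; for arrays 2 and 4, r = 0.824 across 742), and the 4 columns were therefore taken to share 1 direction. Of the pairs with the same assignment, arrays 3 and 4 correlated at r = 0.889 across 581 features and arrays 1 and 2 at 0.127 across 203. Spot-specific dye effects can give correlations above 0 as well, and their part was not tested. Array 1 stood apart, at r = 0.127 to 0.239 with the other arrays, and it held a ratio for 845 of 12800 probes, against 2467, 973 and 1112 on arrays 2 to 4. None of the 6 genes with 3 arrays had a ratio on array 1, so their values come from arrays 2, 3 and 4, and the channel assignments behind each mean are unequal.

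Transcripts of 2 oligosaccharyltransferase subunits, SWP1 and STT3, lay above the array median on each of arrays 2, 3 and 4, at 6.02 and 3.30 times the median. The other 4 tested genes did not pass the test: SRP72 of the signal recognition particle, PSA1, which makes the mannose donor, the Golgi mannosyltransferase gene MNN10, and the ER oxidase gene ERO1. Of the 6, 2 were thus called above and 0 below by limma's moderated test at a Benjamini-Hochberg adjusted p under 0.05, and 2 had an unadjusted p under 0.05. Among all 596 features tested (498 named genes and 98 probes without a gene name), 22.5% were called above and 25.2% below, so calls were common across the whole table and a count of 2 in 6 does not set these genes apart from it. The median of the 6 means was 0.13, beside -0.0047 for all features.

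Each role group had at least 1 gene with a ratio. Oligosaccharyltransferase had both of its measured genes on 3 arrays, and the other 6 of its 8 genes with a probe (OST1, OST2, OST3, OST4, OST6 and WBP1) had no ratio; OST5 had no named probe here. The signal recognition particle and its receptor had ratios for 3 of 7 genes, without SEC65, SRP54, SRP68 and the receptor gene of the set, and signal peptidase for 2 of 4, without SPC2 and SPC3. The Sec61 translocon had a ratio for SBH1 alone among 4 genes, and SEC61, the channel itself, SSS1 and SBH2 had none. Of the 4 Sec63 complex genes, SEC63 and SEC66 had no ratio. Only PMT5 among the 6 protein O-mannosyltransferase genes had one, and PMT1, PMT2, PMT3, PMT4 and PMT6 did not. Of the 8 genes for lipid-linked oligosaccharide assembly, ALG2, ALG3, ALG5, ALG6, ALG7 and ALG9 had none, and of the 8 Golgi mannosyltransferase genes, OCH1, MNN1, MNN2, ANP1 and KTR1 had none. SEC53 and PMI40 of the mannose donor genes, CWH41 and MNS1 of the trimming enzymes, and PDI1, the main disulfide isomerase, had none either.

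The share of the set with a ratio was close to that of the whole array. A ratio on at least 1 array was found for 35.6% of the 59 genes with a probe, against 31.6% of 5539 genes, and a ratio on at least 3 arrays for 10.2% against 8.99%. None of the 59 had a ratio on all 4 arrays, against 1.32% of all genes. No source used here says which spots were left without a value, so a missing ratio says nothing about Mex67 binding.

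**Figure D1:**
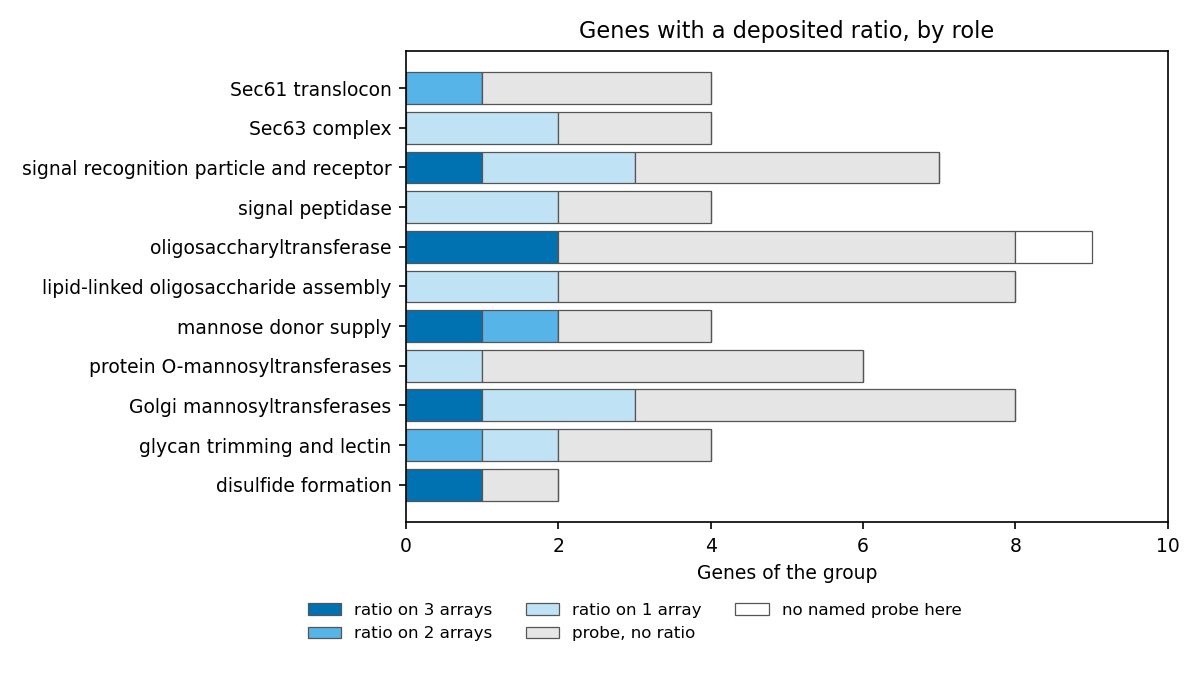
Number of genes in each role group, split by how many arrays held a ratio for the gene (horizontal axis, genes). Oligosaccharyltransferase held 2 of the 6 genes with 3 arrays, and in every group but the mannose donor, signal peptidase, Sec63, trimming and disulfide groups most genes with a probe had no ratio.

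SWP1 (YMR149W) codes for a non-catalytic subunit of oligosaccharyltransferase. Its log2 ratio was 1.95 on array 2, 3.19 on array 3 and 2.62 on array 4. All of these lay well above the median, and the lowest of them, on array 2, was higher than 89.5% of the tested genes on that array. The mean was 2.59 ± 0.62 (SD, n = 3), the 21st highest of the 596 features (limma, adjusted p = 0.00575). The gene had 2 probes, and both were above the median on each array: the first at 1.89, 2.72 and 2.99 on arrays 2 to 4, the second at 2.02, 3.67 and 2.26. Fitted apart, both probes passed (limma, adjusted p = 0.00539 and 0.00905). With a term for the channel assignment the mean was 2.43.

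STT3 (YGL022W) codes for the catalytic subunit of the same enzyme, the protein that joins the sugar chain to asparagine. Its log2 ratio was 0.83 on array 2, 2.13 on array 3 and 2.21 on array 4. Arrays 3 and 4, both with the precipitated RNA in channel 1, gave nearly the same value. Array 2, with that RNA in channel 2, gave a lower one, still above the median. The mean was 1.72 ± 0.78 (SD, n = 3), and 87.8% of the features had a lower mean (limma, adjusted p = 0.0219). The probes differed on array 2, where the first stood at 1.41 and the second at 0.24, and on array 4, at 2.66 and 1.77, and they were close on array 3, at 2.11 and 2.16. Fitted apart, the first passed with a mean of 2.06 (limma, adjusted p = 0.00910) and the second, at 1.39, did not (adjusted p = 0.0614). The call also ended without array 3 (mean 1.52, adjusted p = 0.0887) and without array 4 (mean 1.48, adjusted p = 0.102), each time with 2 arrays left.

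SWP1 exceeded STT3 on each array, by 1.13, 1.06 and 0.41 on arrays 2 to 4, and STT3 exceeded the next gene, SRP72, by 1.72, 1.12 and 1.69. Over 3 arrays an exact two-sided sign-flip test cannot go below p = 0.25, the value that both comparisons gave. The pairs were picked by the order of the means of these same values, which sets the sign of each mean difference. These comparisons therefore do not test the order. The remaining neighbours in the order of means changed places between arrays: SRP72 against PSA1, PSA1 against MNN10 and MNN10 against ERO1 were each higher on 2 of 3 arrays, with differences of 0.16 ± 0.65, 0.49 ± 0.78 and 0.34 ± 0.51 (SD, n = 3). None of these differences between neighbours exceeded its SD.

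**Figure D2:**
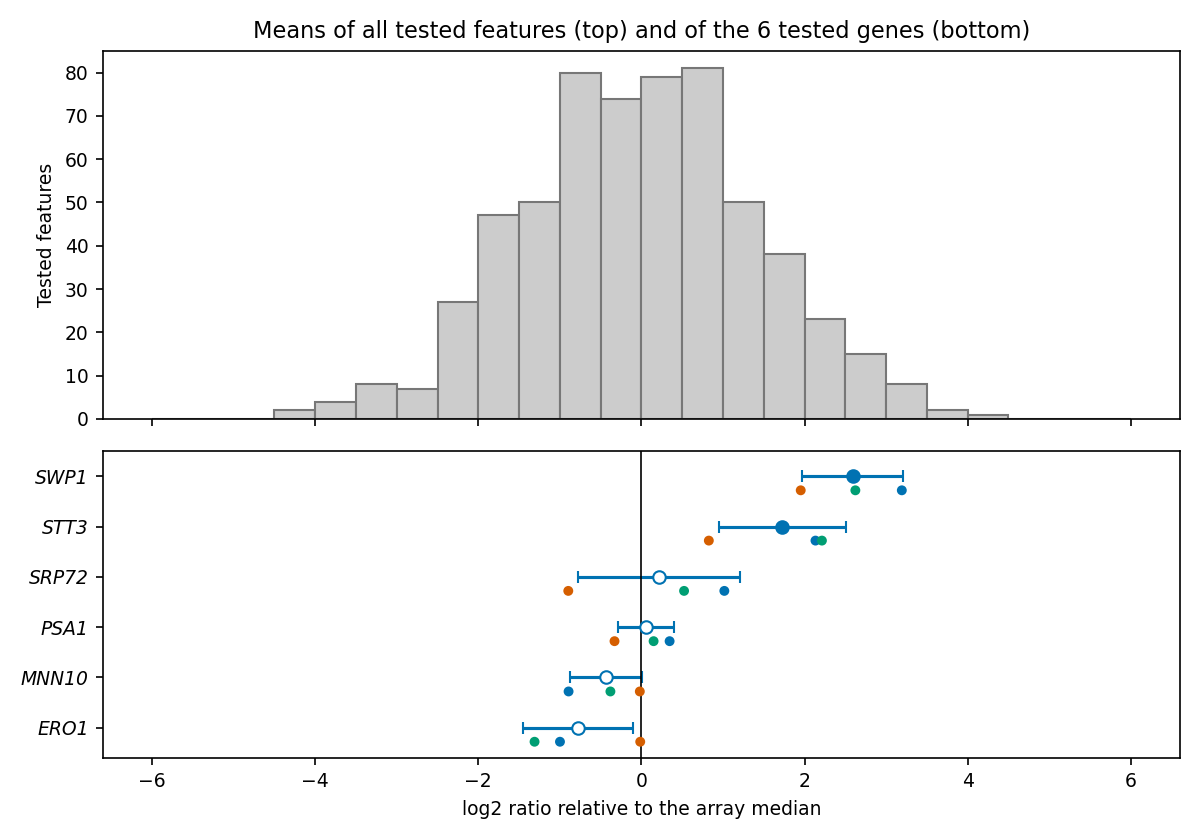
Top, number of tested features by mean log2 ratio relative to the array median, in bins of 0.5. Bottom, the 6 tested genes with mean and SD over 3 arrays (large circles, filled where called) and the value of each array below it (orange array 2, blue array 3, green array 4); SWP1 and STT3 lie to the right of 0 on all 3 arrays, SRP72 and PSA1 on both sides of it.

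SRP72 (YPL210C) codes for a protein of the signal recognition particle, the complex that binds signal sequences on the ribosome. Its log2 ratio was -0.90 on array 2, 1.02 on array 3 and 0.52 on array 4. It thus lay below the median on the array with the precipitated RNA in channel 2 and above it on the arrays with that RNA in channel 1. The mean was 0.21 ± 0.99 (SD, n = 3), the widest spread among the 6 genes, and it did not pass (limma, adjusted p = 0.706). On array 4 its probes lay 1.76 apart, at -0.36 and 1.404, the largest gap among the 19 pairs of probe values in the set. With a term for the channel assignment the mean was -0.06.

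PSA1 (YDL055C) codes for the enzyme that makes GDP-mannose, which gives mannose to these chains directly or by way of dolichol phosphate mannose. Its log2 ratio was -0.33 on array 2, 0.35 on array 3 and 0.15 on array 4, on both sides of the median. The mean was 0.06 ± 0.35 (SD, n = 3; limma, adjusted p = 0.873). A single probe of the gene gave all 3 values. The 58, 35 and 36 measured probes of its block of 400 consecutive probes had medians 0.65, 0.89 and 0.81 above those of arrays 2 to 4, and relative to its block PSA1 lay below on all 3 arrays, at a mean of -0.73 ± 0.22 (SD, n = 3; limma, adjusted p = 0.0720).

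MNN10 (YDR245W) codes for a subunit of a Golgi mannan-elongating complex. Its log2 ratio was -0.02 on array 2, -0.89 on array 3 and -0.38 on array 4. All 3 gene values were below the median, the first barely so. On array 2 its probes fell on opposite sides, at -0.09 and 0.05, and the value on array 4 came from a single probe. The mean was -0.43 ± 0.44 (SD, n = 3; limma, adjusted p = 0.245).

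ERO1 (YML130C) codes for the oxidase that supplies disulfide bonds to the ER through the isomerase Pdi1. Its log2 ratio was -0.01 on array 2, -0.999 on array 3 and -1.31 on array 4. It was at the median on array 2 and below it on the other two. The mean was -0.77 ± 0.68 (SD, n = 3), and it did not pass (limma, adjusted p = 0.125). On array 2 its probes fell on opposite sides, at 0.37 and -0.40, and the value on array 3 came from a single probe. Fitted apart, the probe with all 3 arrays had a mean of -0.81 and did not pass (limma, adjusted p = 0.0531). Without array 2 the mean was -1.15, and without array 3 or 4 it was -0.66 or -0.51 (limma, adjusted p = 0.0532, 0.321 and 0.456).

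Of the 6 genes, 2 lay above the median on each of their arrays, 2 below on each and 2 on both sides. Among all 596 features, 34.1% lay above on each of their arrays and 34.1% below. The 2 genes below on each, MNN10 and ERO1, were barely below on array 2. Against the median of all 1424 genes with a ratio on array 2 they lay above, both at 0.24. Their side on that array therefore depends on the median used. The SD over arrays ran from 0.35 for PSA1 to 0.99 for SRP72, beside a median of 0.50 over all features.

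**Figure D3:**
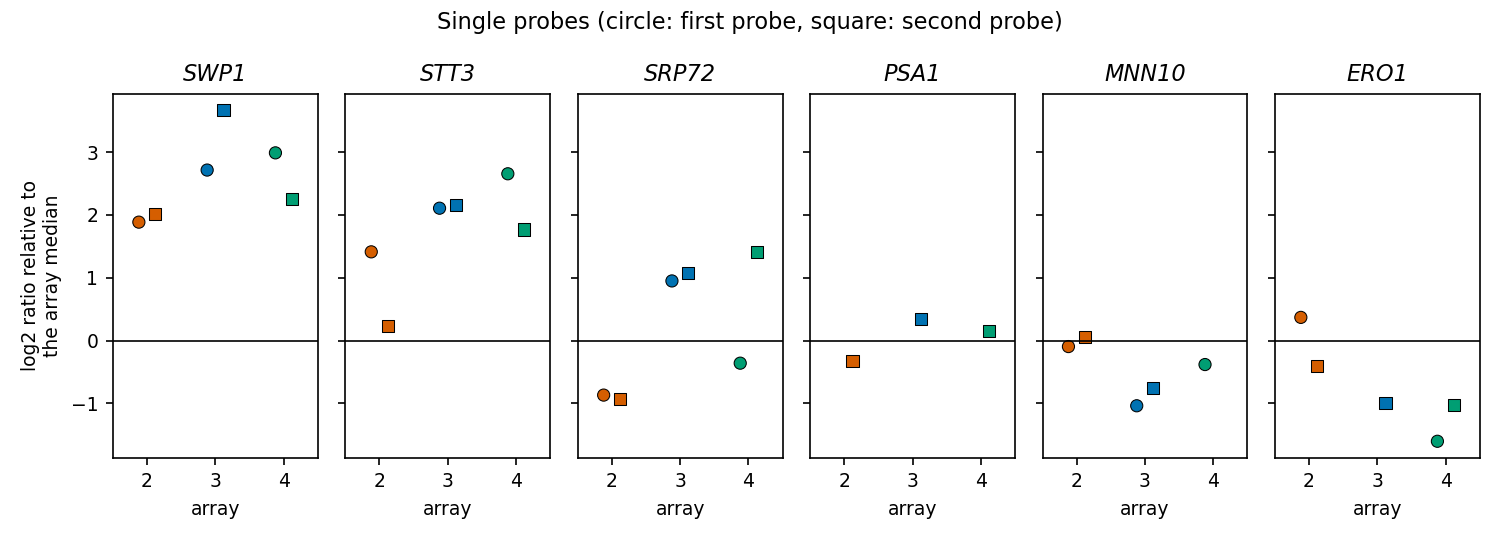
Log2 ratio relative to the array median of each single probe of the 6 tested genes on arrays 2, 3 and 4 (circles first probe, squares second probe). Both SWP1 probes lie above 0 on each array, while the SRP72 probes fall on opposite sides of 0 on array 4 and the ERO1 and MNN10 probes on array 2.

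The medians of blocks of 400 consecutive probes, in order of probe number, differed from the array median. Whether position on the array had a part in this was not tested. When ratios were centred within blocks, SWP1 stood at 2.23 ± 0.55 and STT3 at 1.83 ± 0.82 (SD, n = 3), and both passed (limma, adjusted p = 0.00815 and 0.0250). In that fit 18.0% of all features were called above and 16.6% below. The 2 genes lay in different blocks, whose medians on arrays 2 to 4 were 0.17, 0.35 and 0.57 above the array median for SWP1 and -0.08, 0.04 and -0.26 from it for STT3. MNN10 stayed at -0.43 and ERO1 moved to -0.67, and neither passed.

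**Figure D4:**
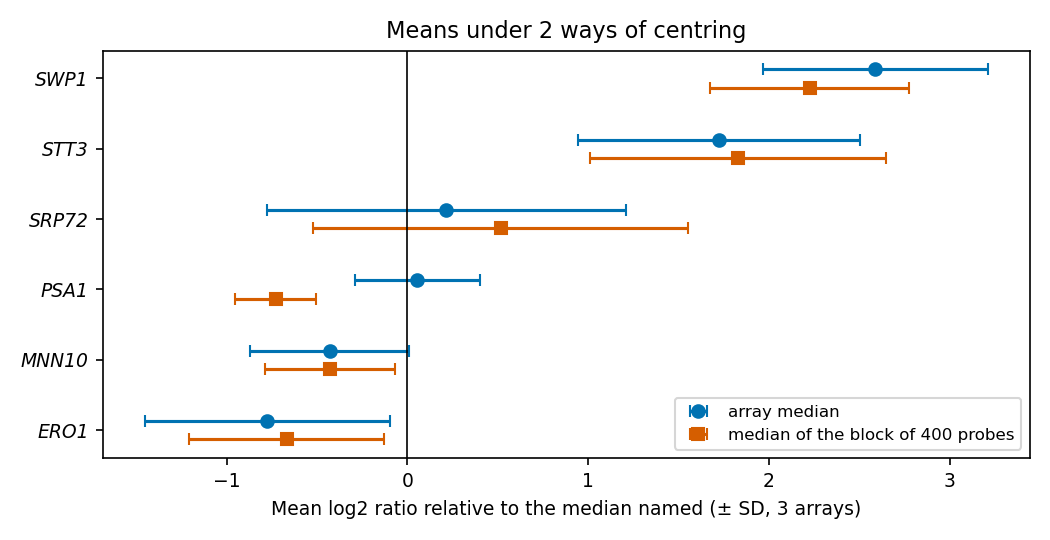
Mean log2 ratio and SD over 3 arrays of the 6 tested genes, centred on the array median (blue circles) or on the median of each block of 400 consecutive probes (orange squares). SWP1 and STT3 keep means of 2.23 and 1.83 within blocks, and PSA1 moves from 0.06 to -0.73.

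Ratios on 2 arrays were available for CNE1, DPM1 and SBH1, which are given apart. CNE1, the yeast relative of the lectin chaperone calnexin, stood at log2 -1.94 on array 3 and -3.38 on array 4, 3.84- and 10.4-fold below the median. On array 4 only 1.69% of the 652 measured genes were lower. Both arrays held the precipitated RNA in channel 1, so that a dye effect could not cancel, and a single probe gave both values. In a limma fit to the 938 features with at least 2 arrays, which called 15.9% of them below and 11.6% above, CNE1 passed at a mean of -2.66 ± 1.02 (SD, n = 2; adjusted p = 0.0301). DPM1, the synthase of dolichol phosphate mannose, stood at -3.60 on array 1 and -0.39 on array 2 and did not pass (adjusted p = 0.167). SBH1, the beta subunit of the Sec61 channel, stood at 0.01 on array 2 and -0.94 on array 4 (adjusted p = 0.472), and its probes on array 4 were 1.29 apart.

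A further 7 genes had a ratio on array 2 alone, and these values have no replicate check. ALG1, whose product adds the first mannose to the dolichol-linked chain, stood at log2 -5.59, 48.3-fold below the median, from 1 probe, and only 1 of the 1424 genes measured on that array was lower. SPC1, a small subunit of signal peptidase, stood at -1.96, where 6.88% of the genes were lower. The other 5 lay nearer to the median: SEC72 at 0.56 and SEC62 at -0.33, both of the Sec63 complex; SEC11, the catalytic subunit of signal peptidase, at 0.56; ROT2, of glucosidase II, at 0.19; and SRP14, of the signal recognition particle, at -0.49. The signal peptidase genes thus lay on opposite sides of the median of the same array, each by 1 of its 2 probes. SEC72, SEC62 and SRP14 also rested on 1 probe each, and the ROT2 probes fell on opposite sides, at -0.16 and 0.55. MNN9, a subunit of the Golgi mannan polymerases, had a ratio on array 4 alone, at -0.97, from 1 probe. The median of its block there was -0.93 relative to the array median, and relative to its block MNN9 stood at -0.05.

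On array 1 alone were SRP21 of the signal recognition particle at log2 -1.69, the mannosyltransferase genes PMT5 of the ER at -1.49 and KRE2 of the Golgi at -2.25, and ALG8, a glucosyltransferase of lipid-linked oligosaccharide assembly, at -1.02. With DPM1, all 5 genes measured on array 1 were below the median used here, which rested on 100 genes there. Against the median of all 468 genes with a ratio on array 1, PMT5 and ALG8 lay above, at 0.02 and 0.49, and SRP21, KRE2 and DPM1 below, at -0.17, -0.74 and -2.09, so that the side of a gene on array 1 depends on this choice. Block medians there, relative to the array median, were -2.03 for SRP21 and -1.81 for PMT5 and KRE2. Relative to its block, SRP21 stood at 0.34, PMT5 at 0.32, KRE2 at -0.44 and DPM1 at -3.47. ALG8 had the only measured probe of its block. Of the 845 deposited values on array 1, 584 equalled the logarithm of a ratio of 2 whole numbers with a denominator of at most 399, against 496 of 2467, 7 of 973 and 33 of 1112 on arrays 2 to 4. The value of KRE2 equalled 8 over 125 in lowest terms and those of the PMT5 probes 8 over 79 and 7 over 60.

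**Figure D5:**
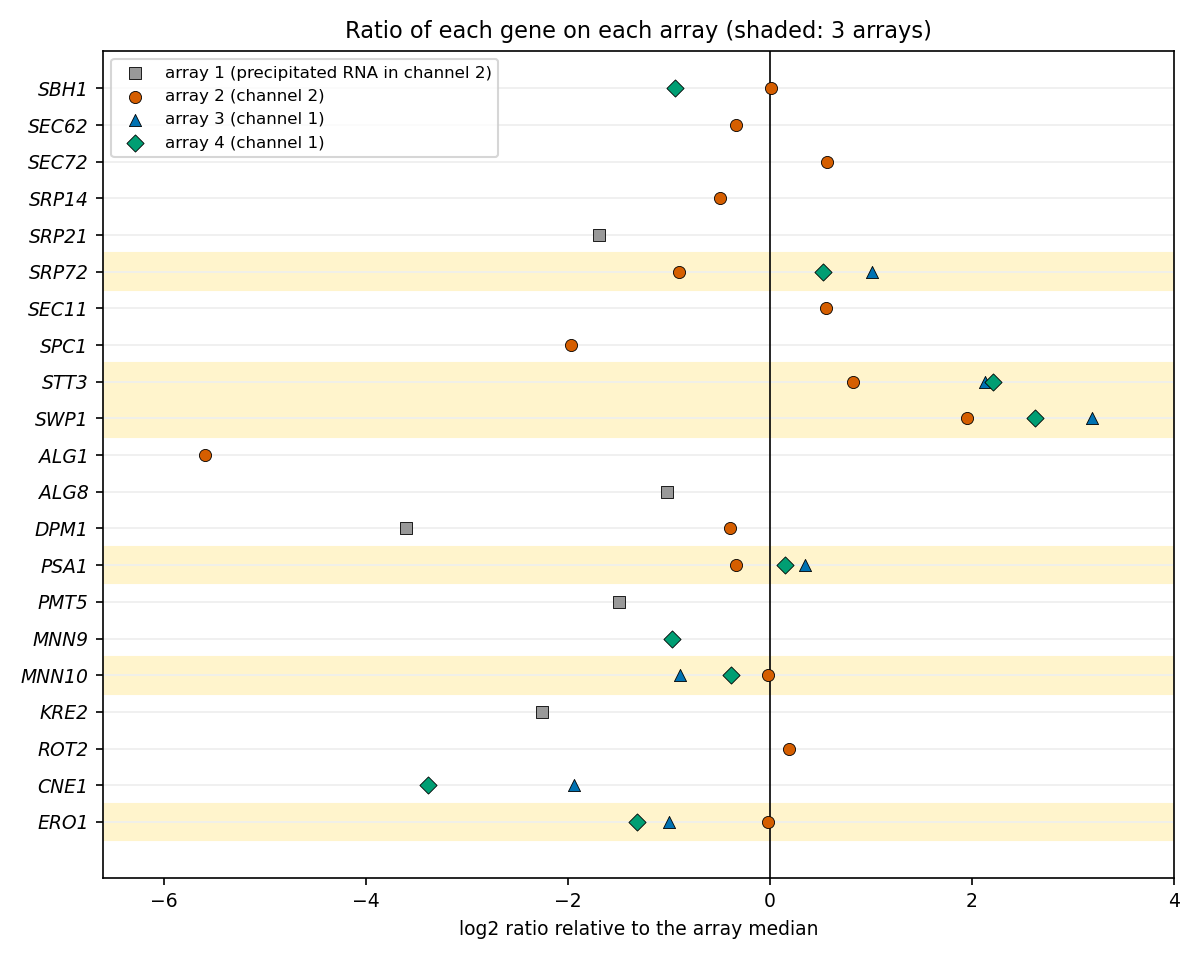
Log2 ratio relative to the array median for each of the 21 genes with a ratio, by array; shaded rows have 3 arrays. SWP1 on array 3 holds the point farthest to the right at 3.19, ALG1 on array 2 lies farthest to the left at -5.59, and all 5 points of array 1 lie below 0.

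On each array the measured genes of the set fell on both sides of the median of all genes with a ratio there: 2 above and 3 below on array 1, 8 and 7 on array 2, 4 and 3 on array 3, and 4 and 5 on array 4.

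Other genes of the secretory pathway were taken from 6 lists with 106 genes in all, 101 of them with a probe, and 4 were tested. GPI19, of the enzyme complex that starts GPI anchor synthesis, lay above the median at 1.68, 1.07 and 0.62 on arrays 2 to 4, with a mean of 1.12 ± 0.54 (SD, n = 3; limma, adjusted p = 0.0373). Its call ended without array 2, 3 or 4 (adjusted p = 0.103, 0.118 and 0.0845), with features on at least 2 arrays (0.0639), centred on features on all 4 arrays (0.0676) and with arrays averaged by the numeric code of their titles (0.0517). GPI15, of the same complex, had -0.74, -0.19 and -0.19 and did not pass (limma, adjusted p = 0.258). These are averages of 2 probes on opposite sides of the median on arrays 3 and 4, at 0.41 and -0.79 and at 0.48 and -0.86. Fitted apart, the lower probe passed at a mean of -1.01 (limma, adjusted p = 0.0274) and the other, at 0.27, did not, and centred within blocks the gene had a mean of 0.68. RET3, a subunit of the COPI coat of Golgi vesicles, lay below at -1.61, -1.23 and -1.36, with a mean of -1.399 ± 0.19 (SD, n = 3; limma, adjusted p = 0.01002), and its call ended without array 4 (adjusted p = 0.0747). RET3 and GPI19 each had all their values from a single probe. SSH1, a second translocon channel related to Sec61, had -0.05, -0.57 and -0.50 and did not pass (limma, adjusted p = 0.248). The lists thus gave 1 gene above and 1 below among 4 tested, which is near the 22.5% and 25.2% of all features, and none of the further N-glycan, Golgi mannosyltransferase and ER folding genes had 3 arrays.

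Each direction above rests on the reading of the columns. With arrays 3 and 4 turned against arrays 1 and 2, SWP1 and STT3 had means of -1.29 and -1.17, and 0 of the 596 features passed (limma; 1 at an unadjusted p under 0.05, which was not a gene of the set). The calls also rest on the centring: as deposited, SWP1 and STT3 lay below a ratio of 1 on array 3, at log2 -0.52 and -1.58, and without centring their means were 1.39 and 0.53 (limma, adjusted p = 0.790 and 0.937).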

How the data were processed

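RNA precipitated with zzMex67 was compared with total RNA on 4 arrays. The authors deposited log10 ratios, 1 for each probe and array; no source used here gives their background correction, normalization or rule for missing values. Base 10 was inferred because many values match a quotient of whole numbers within 1.2e-09 on the log10 scale. The medians of the deposited columns were -0.960, 0.462, -1.12 and -0.519, so the scale is settled, the arrays are not centred on 0, and the direction is unstated.

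Gene symbols came from the platform annotation in GEO, some of it old: 11138 probes had 1 symbol, 0 several and 1662 none. All 59 genes of the set with a probe matched the reference gene table by identifier. Repeated rows of a probe (2) were averaged, then the probes of a gene per array. Ratios were converted to log2, and features on at least 3 arrays were kept. The array medians removed were -1.71, 1.74, -3.71 and -1.61. Means were tested against 0, two-sided, with limma 3.58.1 in R 4.3.3, with Benjamini-Hochberg adjustment over all 596 features. The fit was tested on simulated data with independent normal noise of the same SD for all features and arrays. Those data held no dye, block or array effects, so the simulation does not cover such effects here. Python 3.11.15 and statmod 1.5.0 served the rest.

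The named genes were all genes of the set with a ratio and, of the related lists, the 3 largest called, or the 2 largest if none was called; GPI15 falls outside that rule and was named after its values were seen. The genes, lists and alternatives were chosen with earlier results of these data known. No sequences or coordinates were used. Spots of near-identical genes can share signal. The number of arrays limits the precision.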

Additional observations from a re-analysis of the deposited data

How the results depend on the processing

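SWP1 kept its direction in each alternative but arrays 3 and 4 turned, and its call in each but that one and no centring. Leaving those out, and ranks within each array, which are not on the log2 scale, its mean ran from 2.23 to 3.09 (limma, adjusted p = 0.00130 to 0.0412). Over the same alternatives that of STT3 ran from 1.39 to 2.17 (limma, adjusted p = 0.00790 to 0.102). MNN10 and ERO1 were reversed only by the turn and were never called. Without centring 0 genes of the set and 0 features lay above and 0 below (limma; 52 features at an unadjusted p under 0.05), and SWP1 had 1.39, STT3 0.53, SRP72 -0.98, PSA1 -1.14 and GPI19 -0.074. With arrays 3 and 4 turned the counts were also 0 (1 feature at an unadjusted p under 0.05), and the means were -1.29 for SWP1, -1.17 for STT3, -0.81 for SRP72, -0.27 for PSA1, 0.42 for MNN10, 0.76 for ERO1, 0.34 for SSH1, -0.0012 for GPI19 and 0.33 for RET3. Centred on features on all 4 arrays, PSA1 had -0.017. Centred within blocks, PSA1 had -0.73, SSH1 0.067 and GPI15 0.68, and 99 features lay below, against 150. A term for the channel assignment gave SRP72 -0.063 and PSA1 -0.041. With features on at least 2 arrays 1 gene of the set, CNE1, lay below. With the 80 features on all 4 arrays, none of which was a gene of the set, 13 lay above and 8 below. At an adjusted p under 0.01, 1 gene of the set, SWP1, lay above, with 66 features above and 60 below. Probes kept apart gave 209 above; by the weaker probe of each gene 1 gene of the set lay above, SRP72 had -0.092 and GPI15 0.27, while the stronger GPI15 probe passed at -1.01.

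Leaving out 1 array in turn gave 1 to 2 genes of the set above and 0 below. Of the 596 features, 45 to 168 were called above and 41 to 174 below, the lowest without array 4. Over these runs SRP72 ran from -0.19 to 0.77 and PSA1 from -0.090 to 0.25. Leaving out array 1 could not change the means of the 6 tested genes, which had no ratio there. The causes of these changes were not tested. Quantile normalization, scaling, other variance models, ranks, and the numeric code of the titles (1 for arrays 1 and 3, another for arrays 2 and 4) taken as a random block or averaged over, kept the counts for the set. With 1 group there were no groups to pair, and the main fit did not use the shared code of arrays 2 and 4. Signal over background was not used here, so how far dim spots limit these ratios is unknown.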
